A study of Saccharomyces cerevisiae with 6 samples.

Results

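The genes described here are 38 meiosis and sporulation genes of the budding yeast Saccharomyces cerevisiae, measured in cells that were growing and not sporulating. They were chosen by symbol from a list of 5 meiotic regulators, 19 genes of recombination, the chromosome axis and cohesion, and 14 genes of spore formation. Each symbol matched exactly 1 probe set, and the 38 are part of 5449 S. cerevisiae genes on the array. The array, an Affymetrix design that also covers fission yeast, was hybridised with cRNA from 6 cultures of the W303 laboratory background, all grown at 30 °C in rich medium (YPD) to log phase. Of these, 3 were wild-type and 3 carried the rph1 deletion, which removes the gene for Rph1, a zinc-finger repressor with a JmjC histone demethylase domain. The study asked which genes Rph1 regulates in unstressed growth. The labels give no mating type or ploidy, and they do not say how many deletion clones were used.

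Meiosis in budding yeast is a starvation programme run by diploid cells. Ime1 switches on early genes that cut, pair and recombine chromosomes, and Ndt80 then switches on middle genes for the divisions and for building spores. In growing cells Ume6 holds early genes off with the Sin3 and Rpd3 histone deacetylase, Sum1 holds middle genes off, and in haploid cells Rme1 represses IME1.

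Signals are MAS5 values on a linear scale. The background on an array was taken as the 95th percentile of its 1746 fission yeast probe sets, which stand for signal without a matching budding yeast gene. It was 9.71, 12.7 and 12.1 on wild-type arrays 1, 2 and 3, and 8.59, 12.7 and 8.98 on the same-numbered deletion arrays. A gene was counted above background in a genotype when at least 2 of its 3 arrays exceeded that level. RPH1 read 305, 362 and 385 in wild type and 4.52, 8.18 and 8.99 in the deletion, where only 1 array was above background. All 4 alpha-cell genes (STE3, MF(ALPHA)1, MF(ALPHA)2 and SAG1) and all 7 haploid-specific genes were above background on all 6 arrays. Signals summed over the alpha-cell list were 13179 to 15510 in wild type and 13732 to 17631 in the deletion. Of the 7 a-cell genes, 5 (71.4%) were above background on all 6 arrays, against 97.5% of all S. cerevisiae genes. The summed signals of the 7 were 327 to 403 in wild type and 273 to 375 in the deletion. Mean signals of single genes over the 6 arrays were 12.7 to 108 for this list. They were 1545 to 5783 for alpha-cell genes and 438 to 1611 for haploid-specific genes. The part of cell type in the values below was not tested.

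Most of the 38 genes gave a signal above background in growing cells. In wild type 33 of 38 (86.8%) were above it, and in the deletion 35 of 38 (92.1%). The same rule passed 4.35% of fission yeast probe sets on the wild-type arrays and 3.38% on the deletion arrays, and 98.7% and 98.9% of all S. cerevisiae genes. On every one of the 6 arrays, 30 members (78.9%) were above background, against 97.5% of all genes. The members were nonetheless dim. Their median mean signal over the 6 arrays was 52.0, against 612 for all S. cerevisiae genes. In 28 members (73.7%) the mean was under 100, against 8.50% of all genes. The same rule passed all 7 a-cell genes in both genotypes, and their median mean signal was 38.9. Whether a dim signal above background came from RNA of the gene itself was not tested. In a bulk culture, RNA present in all cells and RNA from a few cells with more of it each also cannot be told apart.

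**Figure D1:**
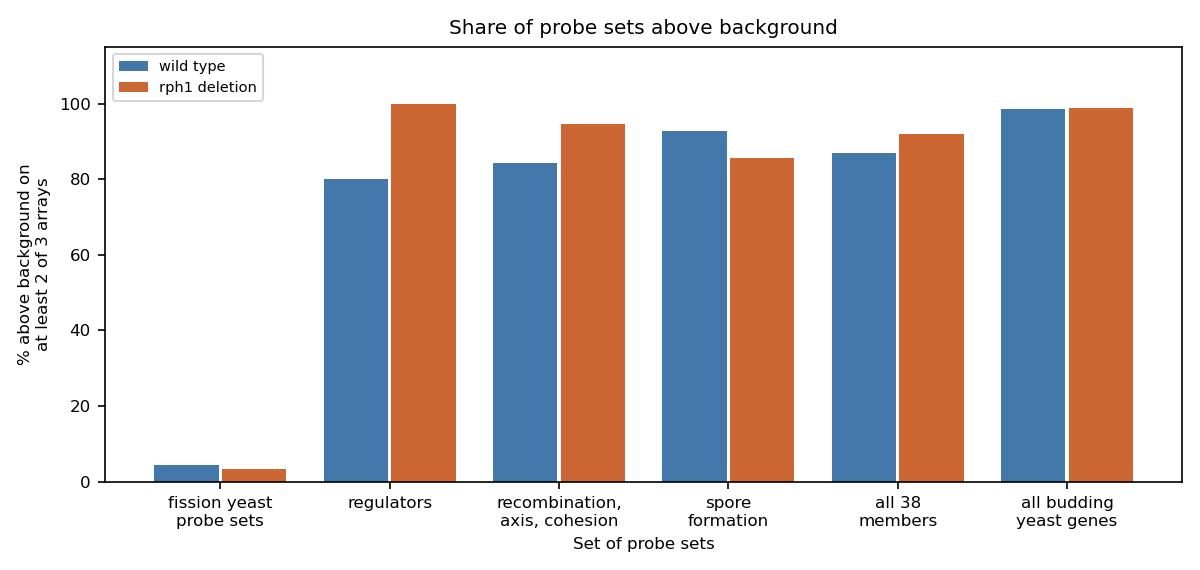
Percentage of probe sets above background on at least 2 of 3 arrays (vertical axis) in wild type (blue) and the rph1 deletion (orange), for fission yeast probe sets, the members by stage, all 38 members and all 5449 S. cerevisiae genes. The members lie at 86.8% and 92.1%, between the fission yeast sets (4.35% and 3.38%) and all genes (98.7% and 98.9%).

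The wild-type and deletion counts differ through 4 genes. IME4, REC114 and HOP2 were above background in the deletion and not in wild type, and CDA2 in wild type and not in the deletion. MEK1 and SPS2 were not above it in either genotype. The background of replicate 3 was itself lower on the deletion array (8.98) than on the wild-type array (12.1). With 1 level for all arrays, 10.8, the counts were 33 in wild type and 33 in the deletion.

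**Figure D2:**
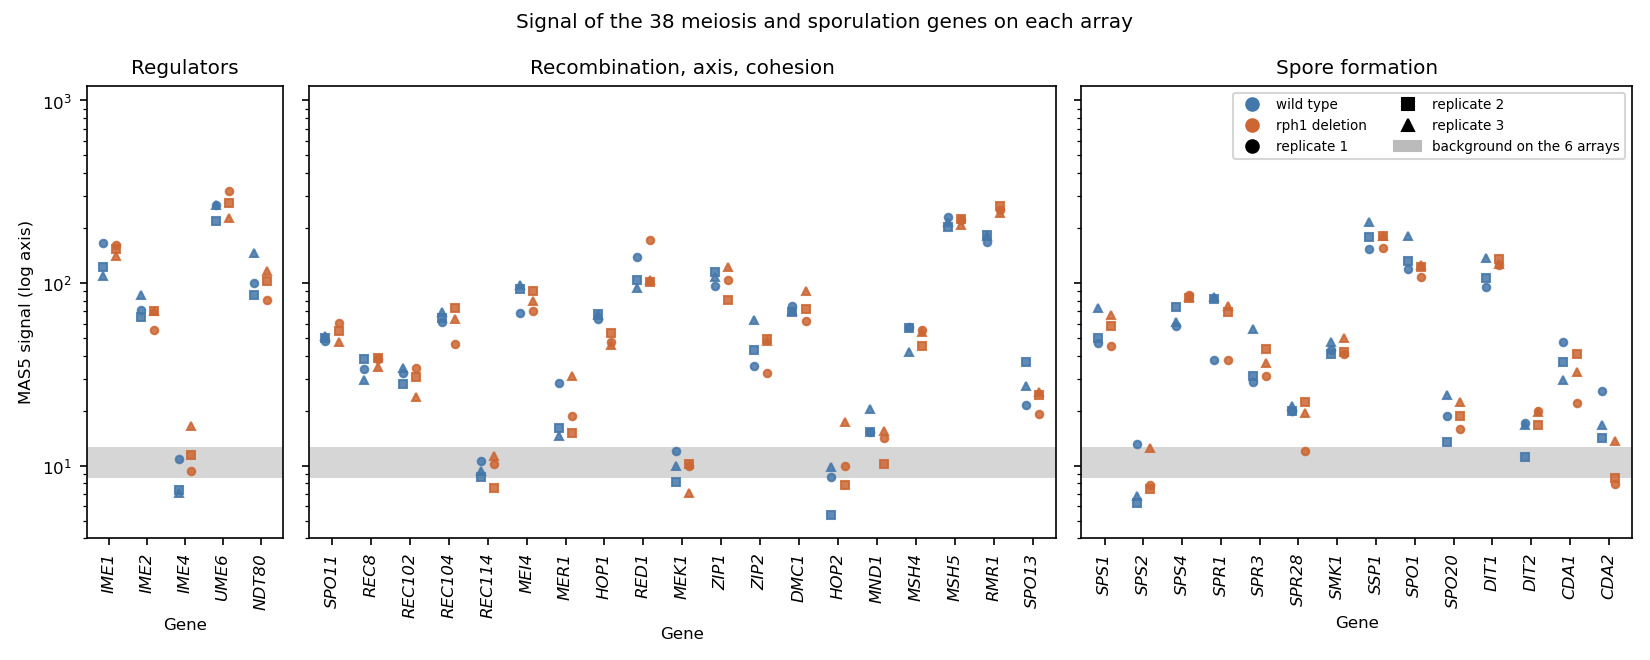
MAS5 signal (log axis) of each of the 38 genes on every array, in 3 panels by stage, with wild type in blue, the rph1 deletion in orange and a marker shape for each replicate number. The grey band spans the background levels of the 6 arrays (8.59 to 12.7), and IME4, REC114, MEK1, HOP2, MND1, SPS2, SPR28, DIT2 and CDA2 have at least 1 point in or under it.

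All 38 members passed the filter on low values, which asked for a mean log2 signal over all 6 arrays above the 95th percentile of the same mean over fission yeast probe sets, so all were tested. No member passed the test between genotypes. limma called 0 of 38 with an adjusted p under 0.05, where it called 2 of all 5402 genes tested (0.037%), and at an unadjusted p under 0.05 there were 4 members (10.5%), against 5.33% of all genes tested. The 4 were RMR1 and SPS4, higher in the deletion (as were 4.33% of all genes tested at that p), and HOP1 and CDA2, lower (1% of all genes tested). Since the members were chosen with earlier results of these data known, these shares are a description only. At any size, 20 members were higher in the deletion and 18 lower, and 50.4% of all genes tested were higher. The median log2 difference of the members, deletion minus wild type, was 0.0011, and that of all genes tested was 0.0012. By stage the median was 0.12 for regulators, 0.0010 for recombination and axis genes and 0.00019 for spore formation genes. Members were noisier than genes at large. The median SD between arrays within a genotype was 0.24 on the log2 scale, against 0.14 for all genes tested. Members were also dimmer (median mean signal 52.0 against 619), and the part of signal level in this spread was not tested. The 95% interval of a member's log2 difference reached a median of 0.41 to either side, between 0.18 for the narrowest and 0.95 for the widest. The smallest exact permutation p with 3 arrays against 3 is 0.1.

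**Figure D3:**
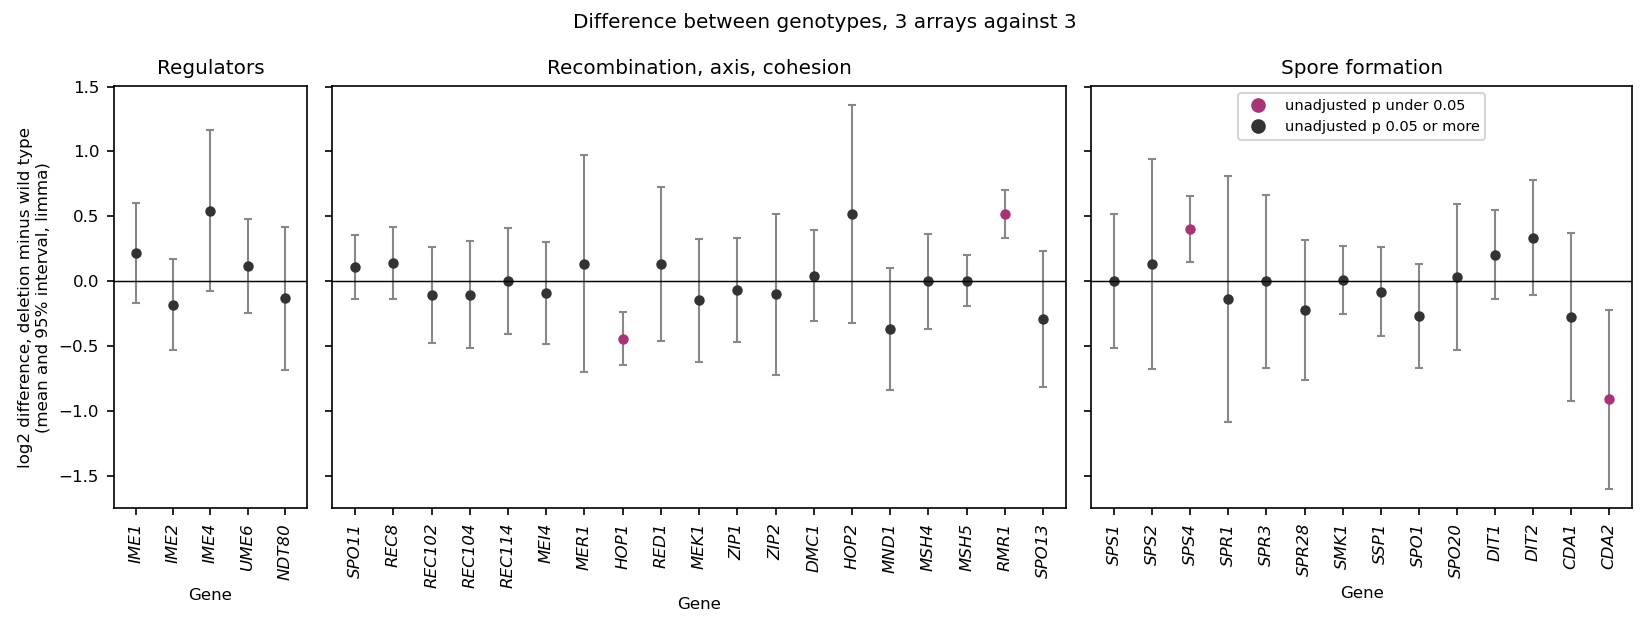
The log2 difference of each gene, deletion minus wild type (vertical axis), with its 95% interval from limma, for 3 arrays against 3. The intervals of RMR1 and SPS4 lie above 0 and those of HOP1 and CDA2 below it, while the other 34 include 0. These intervals are not adjusted for the number of genes. The points of IME4, REC114, HOP2 and CDA2 set a signal against a genotype at background, and MEK1 and SPS2 were not above background in either genotype.

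Among the regulators, IME1 (YJR094C, chromosome X), the activator that starts the programme, read 165, 122 and 109 in wild type and 161, 153 and 140 in the deletion. The groups overlapped, since wild type 1 was the highest array. Deletion minus wild type came to 0.22 on the log2 scale (SE 0.16, 95% interval -0.17 to 0.61, limma adjusted p = 1.00). The replicate 1 pair differed by -0.04, and replicates 2 and 3 alone by 0.35 (unadjusted p = 0.0116, limma adjusted p = 0.293).

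IME2 (YJL106W, chromosome X), a kinase that drives cells through meiosis, read 71.2, 64.8 and 86.1 in wild type and 55.5, 70.3 and 70.0 in the deletion. These also overlapped, with a log2 difference of -0.18 (SE 0.15). IME4 (YGL192W, chromosome VII), the mRNA adenosine methyltransferase, read 10.9, 7.39 and 7.05 in wild type and 9.36, 11.4 and 16.5 in the deletion. Only 1 wild-type array and 2 deletion arrays were above background, and the groups overlapped. An antisense RNA is known across IME4 in haploid cells, and the strand that the probe set reads is not given in the sources used here. Fitted on the log2 scale, the IME4 value of 0.54 (SE 0.26, limma adjusted p = 1.00) rests on 3 arrays under background and is no measured fold.

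UME6 (YDR207C, chromosome IV), the repressor of early genes, read 267, 218 and 266 in wild type and 318, 274 and 226 in the deletion. It was well above background on all arrays and the groups overlapped, with a log2 difference of 0.12 (SE 0.15, 95% interval -0.25 to 0.48). NDT80 (YHR124W, chromosome VIII), the activator of middle genes, read 100.2, 86.2 and 146 in wild type and 80.5, 103 and 116 in the deletion. It too was above background on all 6 arrays in cells that were not sporulating, with a log2 difference of -0.13 (SE 0.23) and overlapping groups.

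Of the 19 recombination, axis and cohesion genes, 16 were above background in wild type and 18 in the deletion. In the difference between genotypes 10 were higher and 9 lower, and 0 passed (limma), against 0.037% of all genes tested. An unadjusted p under 0.05 was found for 2 (10.5%), against 5.33% of all genes tested. These 2 were RMR1 and HOP1.

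RMR1 (YGL250W, chromosome VII), a gene linked to meiotic recombination, read 167, 183 and 181 in wild type and 252, 264 and 243 in the deletion. The 3 deletion arrays all lay above the 3 wild-type arrays, as in 7.55% of all genes tested. The means were 177 ± 8.8 and 253 ± 10.4 (SD, n = 3 each), a ratio of 1.43 (95% interval 1.26 to 1.63). The log2 difference of 0.52 (SE 0.08) did not pass (limma adjusted p = 0.224). It was 0.60, 0.53 and 0.42 in the replicate 1, 2 and 3 pairs. With the batch as a term, where the replicate 1 arrays were set apart from the rest, RMR1 was the 1 member called (limma adjusted p = 0.0400), beside 0.629% of all genes. With the replicate number as a block it was not called (limma adjusted p = 0.104).

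In the RefSeq gene order RMR1 lies between HFM1, which encodes a meiotic DNA helicase, and ZIP2, which encodes a protein of the sites where the synaptonemal complex starts. ZIP2 read 35.2, 42.9 and 62.5 in wild type and 32.3, 49.5 and 47.9 in the deletion, or -0.10 on the log2 scale (SE 0.26). HFM1, not one of the 38, differed by -0.17 (SE 0.08, limma adjusted p = 0.95). Neither neighbour was higher in the deletion.

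HOP1 (YIL072W, chromosome IX), a structural protein of the meiotic chromosome axis, read 63.7, 68.0 and 66.7 in wild type and 47.6, 53.1 and 45.7 in the deletion. The 3 deletion arrays all lay below the 3 wild-type arrays, as in 3.04% of all genes tested. The log2 difference of -0.44 (SE 0.08, 95% interval -0.65 to -0.24) did not pass (limma adjusted p = 0.320). Within replicates 2 and 3 it was -0.45, and in the replicate 1 pair -0.42. The gene beside it, SPO22, which acts in synapsis and crossing over and is not one of the 38, read 90.7, 99.7 and 128 in wild type and 60.6, 79.3 and 77.1 in the deletion. It was also lower on every deletion array (as in 3.04% of all genes tested), with a fitted value of -0.55 on the log2 scale (SE 0.17, limma adjusted p = 0.568). The gene on the other side of HOP1, PCI8, differed by 0.08 (SE 0.31).

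No difference passed for the partners of Hop1 on the axis. RED1 (YLR263W, chromosome XII), which recruits Hop1 to the axis, read 139, 103 and 94.4 in wild type and 171, 102 and 103 in the deletion. Its groups overlapped and both replicate 1 arrays were the highest, with a log2 difference of 0.14 (SE 0.25). MEK1 (YOR351C, chromosome XV) encodes a kinase that acts with Hop1 and Red1. It read 12.1, 8.11 and 9.92 in wild type and 9.94, 10.2 and 7.11 in the deletion. Only 1 of 3 arrays was above background in each genotype, and the groups overlapped. REC8, the meiotic cohesin subunit, was above background on all 6 arrays at 29.5 to 38.7 and differed by 0.14 (SE 0.11).

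For the genes that make the double-strand breaks, no difference passed. SPO11, whose product cuts the DNA, read 48.4, 50.0 and 51.5 in wild type and 60.3, 54.8 and 47.7 in the deletion, differing by 0.11 on the log2 scale (SE 0.10). Its partners REC102, REC104 and MEI4 were above background on all arrays, with log2 differences of -0.11, -0.10 and -0.09. REC114 (YMR133W, chromosome XIII), another partner, read 10.6, 8.69 and 9.39 in wild type and 10.2, 7.49 and 11.3 in the deletion. Only 1 wild-type array and 2 deletion arrays were above background, and the log2 difference was 0.0030 (SE 0.17). MER1, a splicing factor for meiotic transcripts, ranged from 14.5 to 30.9 over the 6 arrays and differed by 0.14 (SE 0.35).

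Among the genes of strand exchange, DMC1, the meiotic recombinase, was above background on all arrays and differed by 0.05 (SE 0.15). HOP2 and MND1 encode its accessory pair. HOP2 (YGL033W, chromosome VII) read 8.68, 5.36 and 9.77 in wild type and 9.93, 7.78 and 17.3 in the deletion. No wild-type array was above background, and no fold is given because the mean log2 signal of the deletion lay under the wild-type bound. MND1, also on chromosome VII, read 15.4, 15.3 and 20.5 in wild type and 14.2, 10.2 and 15.6 in the deletion. Deletion 2 was under background for MND1, and its log2 difference of -0.37 (SE 0.20) did not pass (limma adjusted p = 1.00).

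Among the crossover genes no difference passed either. MSH5 (YDL154W, chromosome IV), which with MSH4 encodes a clamp that holds recombination intermediates, read 231, 203 and 217 in wild type and 221, 225 and 207 in the deletion. The groups overlapped and the log2 difference was 0.0054 (SE 0.08, 95% interval -0.19 to 0.20). MSH4 differed by 0.0010 (SE 0.15), ZIP1, the central filament of the synaptonemal complex, by -0.07 (SE 0.17), and SPO13, which acts at the first division, by -0.29 (SE 0.22).

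Of the 14 spore formation genes, 13 were above background in wild type and 12 in the deletion. In the difference between genotypes 7 were higher and 7 lower, and 0 passed (limma), against 0.037% of all genes tested. An unadjusted p under 0.05 was found for 2 (14.3%), against 5.33% of all genes tested. These 2 were SPS4 and CDA2.

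SPS4 (YOR313C, chromosome XV), a middle gene of sporulation, read 57.9, 73.6 and 61.2 in wild type and 86.1, 82.6 and 84.3 in the deletion. The 3 deletion arrays again all lay higher, as in 7.55% of all genes tested and 2 members (5.26%). The difference was 0.40 on the log2 scale (SE 0.11, 95% interval 0.15 to 0.65, limma adjusted p = 0.449), with 0.57 in the replicate 1 pair and 0.31 in replicates 2 and 3 alone.

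CDA2 (YLR308W, chromosome XII), a chitin deacetylase that makes the chitosan layer of the spore wall, read 25.7, 14.2 and 16.8 in wild type and 7.93, 8.55 and 13.6 in the deletion. The 3 deletion arrays all lay lower, as in 3.04% of all genes tested and 2 members (5.26%), and deletion 1 and 2 were under background. The fitted log2 value, -0.91 (SE 0.29, limma adjusted p = 0.605), therefore sets wild type largely against background and is no measured fold. In the replicate 3 pair, where both arrays were above background, the log2 difference was -0.30, and the fitted value was -0.52 without the replicate 1 pair. CDA1, its partner enzyme, separated from it by 1 gene, read 47.6, 37.0 and 29.3 in wild type and 22.0, 40.9 and 32.5 in the deletion. It was lower in the deletion only in the replicate 1 pair, by 1.11 on the log2 scale, and its overall log2 difference was -0.27 (SE 0.27).

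The dityrosine genes DIT1 and DIT2, a neighbouring pair that makes the outermost spore wall layer, both had positive log2 differences that did not pass. DIT1 (YDR403W, chromosome IV) read 95.5, 107 and 137 in wild type and 126, 135 and 127 in the deletion, differing by 0.21 on the log2 scale (SE 0.14). DIT2 read 17.2, 11.2 and 16.8 in wild type and 19.9, 16.6 and 19.5 in the deletion, differing by 0.34 on the log2 scale (SE 0.18), or 0.13 to 0.44 with 1 array left out at a time. The deletion arrays of DIT1 lay within the wild-type range, and for DIT2 the lowest deletion array lay inside it. Of the other neighbouring pair, SPS1, a kinase needed for spore wall assembly, differed by 0.0011 (SE 0.21). SPS2, which encodes a spore wall protein, read 13.2, 6.22 and 6.79 in wild type and 7.86, 7.44 and 12.6 in the deletion, with 1 of 3 arrays above background in each genotype.

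SSP1 (YHR184W, chromosome VIII), a protein of the leading edge of the membrane that encloses the spore, read 154, 179 and 217 in wild type and 155, 180.3 and 180.4 in the deletion. SPO1 (YNL012W, chromosome XIV), a phospholipase-like protein, read 119, 133 and 182 in wild type and 108, 123 and 125 in the deletion. Both sets of arrays overlapped, with log2 differences of -0.08 (SE 0.14) and -0.26 (SE 0.17). That of SPO1 lay at -0.39 to -0.09 with 1 array left out at a time. The sporulation septins SPR3 and SPR28, the kinase SMK1 and the membrane fusion protein gene SPO20 were above background on all 6 arrays. Their log2 differences were -0.00072, -0.22, 0.01 and 0.04.

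In several members the replicate 1 arrays of both genotypes stood apart together. The labels give the replicate 1 arrays another form of sample code, and this was used as a batch. In 9 members (23.7%) both replicate 1 arrays lay below the other 4, against 25.1% of all genes tested, and in 2 members (5.26%) both lay above, against 28.1%. The widest gap was in SPR1, a glucanase gene of sporulation, which read 37.9 on each replicate 1 array and 69.7 to 84.1 on the rest. The others below were REC104, MEI4, ZIP2, SPO13, SPS1, SPR3, SSP1 and SPO1, and the 2 above were IME1 and RED1.

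With the replicate number as a block, 8 members (21.1%) had an unadjusted p under 0.05, against 13% of all genes tested. Of these 4 were higher (9.4% of all genes) and 4 lower (3.57%), and 0 passed after adjustment (limma), where 0.111% of all genes did. To the 4 named above the block added HOP2 and DIT2, higher in the deletion, and MND1 and SPO1, lower. Their limma adjusted p lay between 0.192 and 0.374. HOP2 in wild type and CDA2 in the deletion were at background, so their pair values are no measured folds. Each of the 8 kept 1 direction in all 3 pairs. That follows largely from how they were chosen, since the block p is small when the 3 pairs agree. Over all members, 5 (13.2%) were higher and 6 (15.8%) lower in all 3 pairs, and over all genes tested 19.9% and 14.7%.

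Other settings gave between 3 and 7 members at that p, apart from the 8 with the block. At an unadjusted p under 0.05 there were 5 members with quantile normalization (5.57% of all genes tested), 4 with median centring (4.91%), 4 with an intensity trend (5.26%), 4 with an offset of 32 (5.33%), 4 without the filter (5.3%), 4 with the batch as a term (14.6%) and 6 in replicates 2 and 3 alone (10.6%). In these settings limma called 0 members, apart from RMR1 with the batch as a term. The share of all genes called was 0.0185% with quantile normalization, the trend or the offset, and 0.0367% without the filter. With 1 array left out at a time, members at an unadjusted p under 0.05 numbered 7 without wild type 1 (5.89% of all genes), 4 without deletion 1 (6.02%), 4 without wild type 2 (4.24%), 3 without deletion 2 (3.72%), 5 without wild type 3 (5.37%) and 4 without deletion 3 (3.89%).

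**Figure D4:**
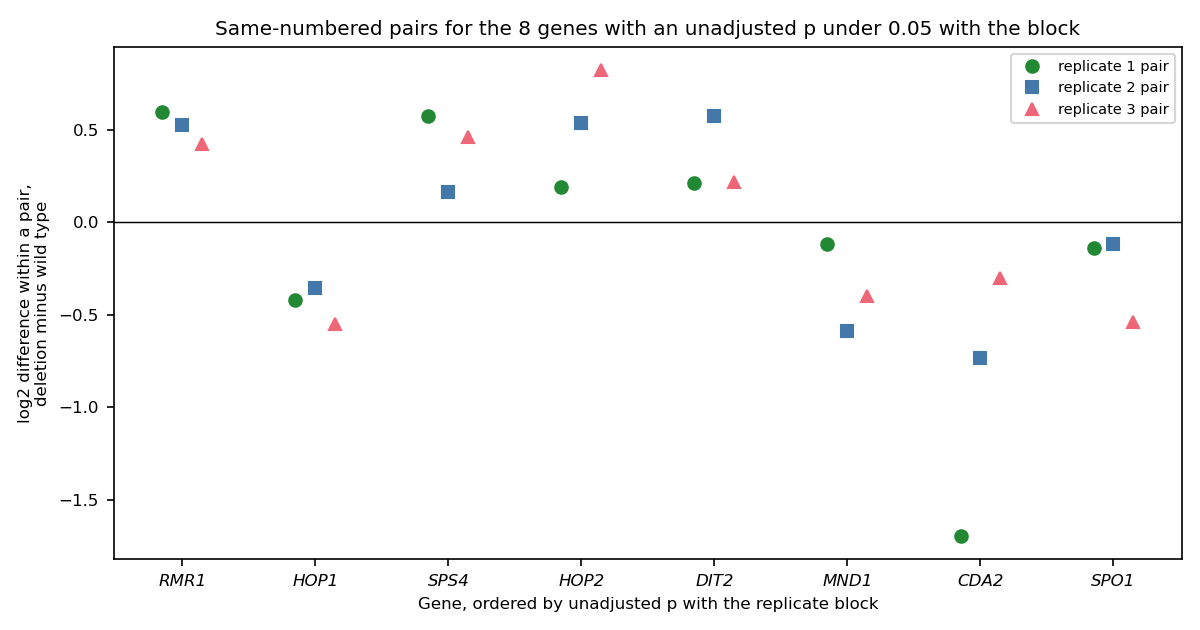
The log2 difference within each same-numbered pair, deletion minus wild type (vertical axis), for the 8 genes with an unadjusted p under 0.05 when the replicate number is a block, with a colour and shape for each pair. RMR1 (0.42 to 0.60) and HOP1 (-0.55 to -0.36) are alike in the 3 pairs, while CDA2 runs from -1.69 to -0.30. The genes were picked by this p, which favours pairs that agree. HOP2 (wild type) and CDA2 (deletion) have arrays under background.

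Further genes of the programme were taken from wider lists. Of 16 other early genes, 14 could be tested, and 5 were higher and 9 lower, where 50.4% of all genes tested were higher. Here 0 passed (limma), against 0.037% of all genes tested, and 1 (7.14%, against 5.33%) had an unadjusted p under 0.05, SPO22. After SPO22 and HFM1 the smallest p belonged to MAM1, which orients sister kinetochores at the first division (-0.24, SE 0.18), and SPO16, a crossover gene (0.14, SE 0.11). SAE3 and MEI5, whose products load Dmc1, were below background on all 6 arrays.

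Of 33 other spore formation genes, 32 could be tested, 12 were higher and 20 lower, and 0 passed (limma), with 3 (9.38%) at an unadjusted p under 0.05. Over all genes tested 50.4% were higher, 0.037% passed and 5.33% had such a p. SHC1, which activates chitin synthase during sporulation, read 73.6, 94.8 and 77.9 in wild type and 162, 143 and 144 in the deletion. All its deletion arrays were higher, as in 7.55% of all genes tested. SHC1 differed by 0.87 on the log2 scale (SE 0.12) but did not pass (limma adjusted p = 0.178). It was not called with the replicate block (limma adjusted p = 0.104) and was called with the batch as a term (limma adjusted p = 0.0422). RRT8, a spore wall gene, differed by 0.31 (SE 0.10), DTR1, a transporter of the dityrosine precursor, by -0.27 (SE 0.11), and SPO75, a gene needed for sporulation, by -0.28 (SE 0.12).

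The repressors and upstream regulators were all above background, and of 23 tested 0 passed (limma), with 0 at an unadjusted p under 0.05. RME1, which represses IME1 in haploid cells, read 1153, 1790.0 and 1687 in wild type and 1558, 1770 and 1711 in the deletion. Its low array was wild type 1, and the groups overlapped. Log2 differences were 0.15 (SE 0.18) for RME1 and 0.02 (SE 0.11) for SUM1, 0.07 (SE 0.12) for SIN3 and 0.02 (SE 0.08) for RPD3. The smallest p in the list belonged to SOK2 (-0.22, SE 0.09), a repressor of IME1, SNF1 (0.16, SE 0.07), a kinase of glucose derepression, MSN2 (0.13, SE 0.08), a stress activator, and HST1 (-0.21, SE 0.16), the deacetylase that works with Sum1.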

How the data were processed

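The authors deposited 1 linear intensity (signal) for each probe set, computed with MAS5 per the submitters' processing notes, whose version and target are not stated there. A 2% trimmed mean came to 500.2 on every array, so values were used as deposited. Probe sets were matched by gene identifier to the RefSeq table (assembly R64), used for names, chromosomes and gene order. Where a gene had several, the probe set with the highest mean was kept. Tests were run with limma 3.58.1 (R 4.3.3, lmFit and eBayes on log2 signal, genotype as the only term, 2-sided) on the 5402 genes above a mean log2 signal of 3.06, with Benjamini-Hochberg adjustment over all of them at 0.05. The script was tested on simulated data. The members and lists were chosen with earlier results of these data known. All 38 members may be named. Values on each array are given for regulators, members with an unadjusted p under 0.05, the 3 with the highest and the 3 with the lowest signal of each other stage, and those above background in 1 genotype. From each wider list the 4 genes with the smallest p are named, and RME1, SUM1, SIN3 and RPD3. Some further members are given array by array, chosen after their values were seen.

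The design text calls the samples biological, and no source says that same-numbered cultures were grown together. Deviations from group means correlated across genes at 0.768, 0.454 and 0.415 within replicates 1, 2 and 3, all above 0.1, so numbers were taken to pair arrays, a pairing that comes from the data. Replicate 1 stood apart, but the numbers 2 and 3 were not told apart: wild type 3 matched deletion 2 (0.535), and wild type 2 matched deletion 3 (0.471), more closely than their own numbers. The number of arrays, 3 per genotype, limits precision.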

Additional observations from a re-analysis of the deposited data

How the results depend on the processing

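Alternatives were quantile normalization, median centring, an intensity trend, an offset of 32, no filter, the replicate block, the batch as a term, replicates 2 and 3 alone, and leaving out each array. The count of genes called, 2, became 1 with quantile normalization, the trend or the offset, 6 with the replicate block and 34 with the batch as a term, and lay between 1 and 2 when single arrays were left out. The members called stayed at 0, except 1 (RMR1) with the batch as a term, where 1 of the other spore formation genes, SHC1, was called too. Members with an unadjusted p under 0.05, 4 at first, were 8 with the replicate block, and 3 to 7 with single arrays left out; the 7, without wild-type replicate 1, included IME1 (0.39), IME4 (0.74) and SPO13 (-0.48), of which IME4 was at background in wild type. The block called no member. The log2 difference of CDA2 was -0.27 with the offset of 32, which shrinks dim genes, and -0.52 in replicates 2 and 3 alone; the cause of the second was not tested. Of 532 log2 differences of members compared over 14 settings, 56 turned sign, none of them called, and 15 of 38 members kept 1 sign throughout. The sign turned for MSH5 with quantile normalization (-0.053). With median centring it turned for REC114 (-0.033), MSH4 (-0.035), MSH5 (-0.031), SPS1 (-0.035) and SMK1 (-0.024), and with the offset for MSH4 (-0.0017) and SPS1 (-0.0012). In replicates 2 and 3 alone it turned for REC104 (0.040), SPR28 (0.030) and CDA1 (0.15). With single arrays left out the lowest and highest values lay on both sides of 0 for SPS1 (-0.12 to 0.20), SMK1 (-0.080 to 0.071), UME6 (-0.0016 to 0.24), NDT80 (-0.29 to 0.088), REC104 (-0.24 to 0.082), REC114 (-0.12 to 0.18), MEI4 (-0.24 to 0.0045), RED1 (-0.11 to 0.30), ZIP2 (-0.29 to 0.13), MSH4 (-0.15 to 0.090), MSH5 (-0.043 to 0.053). The same held for SPR1 (-0.51 to 0.18), SPR3 (-0.18 to 0.30), SPR28 (-0.40 to 0.045), SPS2 (-0.10 to 0.47), SPO20 (-0.18 to 0.24), ZIP1 (-0.21 to 0.10), MER1 (-0.15 to 0.44), SSP1 (-0.20 to 0.049), REC102 (-0.22 to 0.038), MEK1 (-0.29 to 0.020) and DMC1 (-0.10 to 0.18). The cause of these turns was not tested. Of the members that kept 1 sign, the value moved by over 1.5 times when single arrays were left out for IME1 (0.093 to 0.39), IME2 (-0.27 to -0.067), IME4 (0.32 to 0.74), SPO11 (0.034 to 0.20), REC8 (0.047 to 0.24), MND1 (-0.49 to -0.18), SPO13 (-0.48 to -0.085), SPO1 (-0.39 to -0.088), DIT1 (0.092 to 0.35), DIT2 (0.13 to 0.44) and HOP2 (0.19 to 0.77), whose wild-type arrays were under background. Members above background were 28 and 30 (wild type and deletion) at the 99th percentile, 36 and 38 at the 90th, 32 and 31 when all 3 arrays had to pass, and 32 to 33 and 31 to 35 with single arrays left out. The 1 common background level was chosen after seeing the data. A planned search for promoter motifs was not run, since no sequence was used here. Signals near background limit IME4, REC114, MEK1, HOP2, SPS2 and CDA2.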
